A study of Mus musculus with 13 samples.

Results

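The genes Gypc, Mcam, Gpnmb, Slc43a1, Fam180a, Spock2, Angptl7 and Zfp949 (8 genes) were followed in abdominal epidermis during and after pregnancy. They were picked, out of the 21950 genes of the bulk table, as large rises in the Tbx3 conditional knockout (cKO) over the wild type (WT) at gestation day 16 (dpc16). That contrast therefore describes these genes and carries no test here. The bulk libraries came from CD49f positive, CD34 negative interfollicular basal cells sorted from abdominal skin of C57BL/6 mice. Each of 3 groups had 3 libraries: WT mice at dpc16, WT mice that were not pregnant (NP), and K14creERT2;Tbx3flox/flox mice at dpc16. In the last group a tamoxifen-inducible recombinase is driven by the keratin 14 promoter, so recombination is directed to keratinocytes that use this promoter. Whether the WT mice of the bulk groups received tamoxifen is not given in the sources used here. The single-cell libraries came from whole abdominal epidermis of tamoxifen-treated C57BL/6 mice with the genotype Tbx3creERT2; R26H2B EGFP. A single library was made for each of 4 states, which were NP, dpc16, day 6 after birth (dpp6) and day 40 after birth (dpp40). None of the single-cell libraries analysed came from cKO mice, so they show where each gene is read in skin that was not given the cKO genotype, not which cells held the bulk rise.

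Tbx3 is a T-box transcription factor that acts mostly as a repressor and that shapes limb, mammary gland and skin during growth. Basal keratinocytes divide on the basement membrane and supply the layers above, and during pregnancy the abdominal epidermis has to cover a growing area. The genes belong to different families. Gypc (glycophorin C) is a sialoglycoprotein that ties the red cell membrane to its skeleton. Mcam is an adhesion molecule of the immunoglobulin superfamily, known from vessels and melanoma. Gpnmb is a transmembrane glycoprotein of melanosomes and lysosomes, known from melanocytes and macrophages. Slc43a1 is a sodium-independent transporter of large neutral amino acids. Spock2 is a testican, a proteoglycan of the extracellular matrix, and Angptl7 is a secreted angiopoietin-like protein. Zfp949 is a zinc finger protein of the nucleus, and Fam180a is little studied.

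The promoters of 7 of the 8 genes were matched to RefSeq sequences of the build GRCm38.p6, and Gypc is named only. A window of 300 bases around each start site was searched on both strands for the T-box core GGTGTGA and for the E-boxes CACGTG and CATGTG. These are shown because the genes were picked as rising together after loss of a T-box factor, and because lysosomal genes such as Gpnmb are known for E-boxes. The windows of Zfp949, Slc43a1 and Fam180a held a match, and the 250 bases upstream of their start sites follow, read 5′ to 3′ on the gene's own strand, with matches on either strand in capitals. The Zfp949 sequence is chr9:88547770-88548019 (plus strand), the Slc43a1 sequence chr2:84840073-84840322 (plus strand) and the Fam180a sequence chr6:35326142-35326391 (minus strand).
Zfp949: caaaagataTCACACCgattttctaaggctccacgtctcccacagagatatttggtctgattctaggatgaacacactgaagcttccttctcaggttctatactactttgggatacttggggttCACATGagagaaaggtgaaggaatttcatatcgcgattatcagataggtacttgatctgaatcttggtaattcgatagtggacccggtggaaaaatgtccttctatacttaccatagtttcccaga
Slc43a1: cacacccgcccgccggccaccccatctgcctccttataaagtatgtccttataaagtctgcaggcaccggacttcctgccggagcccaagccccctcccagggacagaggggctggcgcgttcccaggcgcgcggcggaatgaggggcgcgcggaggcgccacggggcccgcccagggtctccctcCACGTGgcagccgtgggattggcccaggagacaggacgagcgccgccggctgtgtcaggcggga
Fam180a: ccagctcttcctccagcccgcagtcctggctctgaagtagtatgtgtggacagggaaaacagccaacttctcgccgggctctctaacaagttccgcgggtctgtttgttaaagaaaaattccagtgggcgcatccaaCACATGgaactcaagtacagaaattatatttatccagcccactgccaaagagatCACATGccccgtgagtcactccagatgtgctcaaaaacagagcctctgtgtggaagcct

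The T-box core stood in the Zfp949 window alone, 241 bases upstream of the start site, and 3.95% of all 32544 promoters hold it. The CATGTG E-box stood 126 bases upstream in Zfp949 and at 113 and 59 bases upstream in Fam180a, and 14.2% of all promoters hold it. The CACGTG E-box stood 64 bases upstream in Slc43a1, and 7.17% of all promoters hold it. The start site used for Slc43a1 lies inside the gene as GENCODE release M21 draws it. The windows of Mcam, Gpnmb, Spock2 and Angptl7 held none of these letters, which says only that the letters are not in these windows.

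Bulk levels are in FPKM (fragments per kilobase of transcript, scaled to the fragments of the library). Summed FPKM lay between 785636 and 847693 per bulk library, and the read depth behind it is unknown. The basal markers Krt14 (4260 to 11688 FPKM) and Itga6 (277 to 443 FPKM) were high in all 9 libraries. Tbx3 was at 17.0, 15.3 and 23.0 FPKM in the WT dpc16 libraries, at 8.96, 6.38 and 8.12 in NP and at 4.81, 1.65 and 4.89 in cKO. It fell by 2.09 on the log2(FPKM + 1) scale between WT and cKO at dpc16 (limma adjusted p = 0.0124), and it passed in 13 of 15 other settings (0.0105 to 0.0991). The single-cell libraries held 40450455 (NP) to 74804602 (dpc16) unique molecular identifiers (UMIs, counts of captured molecules). Pairs of these libraries shared between 75 and 154 cell barcodes.

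Every one of the 8 genes was higher in each cKO library than in any WT dpc16 library, and 13.3% of the 11497 genes tested had such groups that do not overlap, upwards. Since this contrast chose the genes, nothing is read from that count. All 8 passed the filter of a mean of 1 FPKM over 9 libraries, Gypc through its cKO values alone. On the log2(FPKM + 1) scale they took 8 of the first 14 places among the genes tested, from place 2 for Gypc to place 14 for Mcam. In bulk tissue more cells that express a gene and more RNA per cell cannot be told apart.

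Among the membrane proteins, Gypc was close to absent without the knockout. It was listed at 0, 0.126 and 0 FPKM in WT dpc16 and at 0, 0 and 0.0310 in NP, against 11.5, 38.9 and 15.5 in cKO. The cKO libraries differed more than 3-fold among themselves, with library 2 the highest, and no fold is given over groups listed at or near 0. Its difference of 4.28 on the log2 scale with a pseudocount of 1 became 7.19 with a pseudocount of 0.1.

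Mcam (mm10 chromosome 9, 44134469 to 44142727, plus strand) was at 4.88, 2.99 and 4.43 FPKM in WT dpc16, at 8.11, 9.74 and 6.35 in NP and at 26.0, 44.1 and 19.6 in cKO. The cKO mean of 29.9 ± 12.7 (SD, n = 3) was 7.30 times the WT mean of 4.10 ± 0.989. As for Gypc, cKO library 2 was the highest.

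Gpnmb (chromosome 6, 49036546 to 49070929, plus strand) was at 19.4, 7.37 and 8.63 FPKM in WT dpc16, at 5.52, 6.76 and 2.80 in NP and at 123, 49.7 and 64.2 in cKO. Both dpc16 groups were spread widely, and their means of 11.8 ± 6.64 and 78.8 ± 38.7 (SD, n = 3) differed 6.67-fold. WT library 1 and cKO library 1 were the highest of their groups.

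Slc43a1 (chromosome 2, 84838850 to 84863594, plus strand) was at 6.16, 5.92 and 3.53 FPKM in WT dpc16, at 5.03, 7.19 and 7.11 in NP and at 86.0, 32.7 and 26.4 in cKO. The WT and NP libraries overlapped, and the cKO mean of 48.3 ± 32.7 (SD, n = 3) was 9.29 times the WT mean. Library 1 of cKO held more than the other two together.

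Among the matrix and secreted proteins, Spock2 (chromosome 10, 60106219 to 60135198, plus strand) was at 10.4, 7.29 and 1.99 FPKM in WT dpc16, at 2.19, 2.12 and 3.71 in NP and at 57.2, 37.4 and 36.6 in cKO. The cKO mean of 43.7 ± 11.7 (SD, n = 3) was 6.66 times the WT mean of 6.57 ± 4.27. WT library 3 was lower than every NP library.

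Angptl7 (chromosome 4, 148495183 to 148500460, minus strand) was at 0.583, 1.02 and 0.860 FPKM in WT dpc16, at 0.344, 0.329 and 4.77 in NP and at 18.5, 11 and 14.7 in cKO. The cKO mean of 14.7 ± 3.79 (SD, n = 3) was 18.0 times the WT mean. One NP library, the third, stood well above all WT dpc16 libraries. All 5278 bases of Angptl7 lie within Mtor on the opposite strand. How the counting used strand is not given in the sources used here, so reads of the 2 genes may not be separable. Mtor itself stayed between 12.4 and 18.3 FPKM over the 9 libraries.

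Fam180a (chromosome 6, 35312668 to 35326141, minus strand) was at 1.11, 1.77 and 1.32 FPKM in WT dpc16, at 7.24, 3.02 and 3.75 in NP and at 27.9, 15.3 and 13.2 in cKO. The order of the groups was WT dpc16, then NP, then cKO, with no overlap between neighbours. The cKO mean of 18.8 ± 7.93 (SD, n = 3) was 13.4 times the WT mean.

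Zfp949 (chromosome 9, 88548020 to 88571061, plus strand) was at 5.68, 9.29 and 6.80 FPKM in WT dpc16, at 12.4, 19.5 and 7.65 in NP and at 74.6, 42.4 and 45.1 in cKO. The cKO mean of 54.0 ± 17.8 (SD, n = 3) was 7.45 times the WT mean. Zinc finger genes have close relatives, and reads shared between them may have been split by the authors' counting, so its level is uncertain. Shorter overlaps with an antisense gene (17 bases, Mcam), a microRNA (58 bases, Spock2) and a small RNA (290 bases, Zfp949) were also annotated. Library 1 of cKO was the highest for 6 of the 8 genes and library 2 for the other two, Gypc and Mcam.

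**Figure D1:**
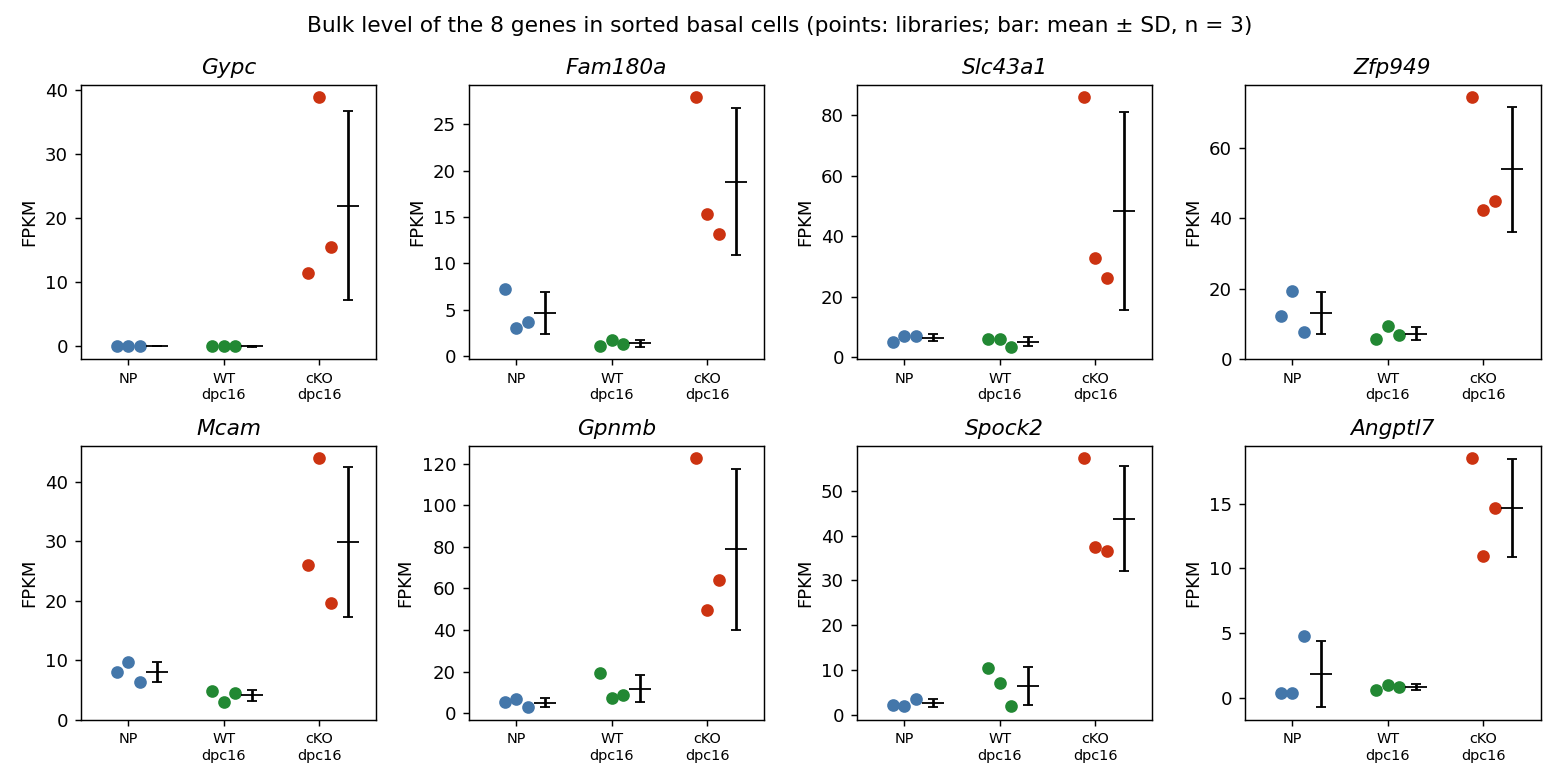
FPKM of the 8 genes in each bulk library, by group (NP, WT dpc16, cKO dpc16); points are libraries and the bar beside them is the mean ± SD of 3 libraries. The cKO points lie above every WT point in all 8 panels, and the y axes differ between panels.

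The NP libraries, which the choice of the genes did not use, placed the genes differently. All 8 were higher in each cKO library than in any NP library (12.2% of genes tested had groups apart in this direction), but this comparison uses the same cKO libraries that chose the genes. Between WT dpc16 and NP, which share the WT libraries with the choice, the genes did not move together. Gpnmb was higher in every WT dpc16 library than in any NP library (groups were apart upwards for 6.82% of genes tested), by 1.03 on the log2 scale. Fam180a and Mcam were lower in every WT dpc16 library (apart downwards for 8.77% of genes), by differences of -1.18 and -0.83. The other 5 overlapped, with differences of 0.04 for Gypc, -0.28 for Slc43a1, -0.71 for Zfp949, 0.86 for Spock2 and -0.27 for Angptl7. The last of these rests on NP library 3, and without it the difference was 0.44. Relative to NP, then, Fam180a, Mcam and Zfp949 had cKO means 4.03, 3.71 and 4.10 times higher, while those of Gpnmb and Spock2 were 15.7 and 16.4 times higher.

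Markers of cells that are known for these genes were read in the same libraries. Of 7 erythroid markers, Hbb-bs, Hbb-bt and Slc4a1 were listed at 0 in all 9 libraries. The summed erythroid list was 1.08 to 1.98 FPKM in WT dpc16, 1.67 to 4.07 in NP and 0.787 to 3.74 in cKO. These ranges overlapped. Only 1 of the 7 could be tested, and it did not pass in cKO against WT by limma (0 with an unadjusted p under 0.05). Sums this near the floor say little, and the part of red cells in the Gypc rise was not tested. Of 8 melanocyte markers, 2 could be tested and neither passed in cKO against WT by limma, nor did either have an unadjusted p under 0.05 (0 of 2). Over all genes tested 17.4% had an unadjusted p under 0.05, and each such count for a list stands against that share. Their sum was 2.87 to 5.67 FPKM in WT dpc16, 3.14 to 4.92 in NP and 4.13 to 8.68 in cKO, with Tyrp1 at most 0.453 and Mlana at 0 except for 0.732 in cKO 2. The Langerhans cell list summed to 30.9, 43.1 and 43.4 FPKM in WT dpc16, to 56.2, 70.7 and 65.4 in NP and to 90.1, 96.0 and 31.3 in cKO. It was thus high in cKO libraries 1 and 2, the libraries in which each of the 8 genes was highest, and as low in cKO library 3 as in WT. All 6 of its 8 genes that could be tested had a log2 difference above 0, none passed by limma, and 1 had an unadjusted p under 0.05. Cd207, the defining Langerhans gene, was at 0.688 to 0.978 FPKM in WT dpc16 and at 1.03 to 1.99 in cKO. In cKO library 3 too each of the 8 genes was above every WT dpc16 library, but this contrast chose them. The part of Langerhans cells in the 8 rises was not tested. The macrophage list summed to 3.07 to 4.73, 4.25 to 6.48 and 2.16 to 7.17 FPKM in WT dpc16, NP and cKO. Of the 8 macrophage markers 2 could be tested, and neither passed by limma (0 of 2 with an unadjusted p under 0.05). The endothelial list summed to 2.61 to 5.74, 0.519 to 5.80 and 1.70 to 8.07 FPKM, with Cdh5 listed at 0 in all 9, and neither of its 2 tested genes passed by limma (1 with an unadjusted p under 0.05, as for 17.4% of all genes tested). Of the 4 mural cell markers tested, Notch3 passed, lower in cKO (14.8 ± 1.03 against 6.65 ± 0.906 FPKM, SD, n = 3; limma adjusted p = 0.0209), in 9 of 15 other settings as well. Pdgfrb, which marks pericytes, was at most 0.0370 FPKM. For the follicle, none of the 5 tested bulge and outer root sheath markers passed by limma (0 with an unadjusted p under 0.05), and their list summed to 8447 to 10932 FPKM in WT dpc16 and 7973 to 10019 in cKO, nearly all of it Krt15. Cd34, the gate's own exclusion marker, was at most 2.23 FPKM in any library. None of the 7 Sostdc1-high upper follicle markers passed either (1 with an unadjusted p under 0.05), with sums of 6296 to 11805 FPKM in WT dpc16 and 9184 to 16185 in cKO. Among keratinocyte layers, the basal list summed to 25035 to 26454 FPKM in WT dpc16, 22047 to 28890 in NP and 13781 to 21344 in cKO, so each cKO library was below every WT dpc16 library. None of its 8 genes passed by limma, 3 had an unadjusted p under 0.05 (against 17.4% of all genes tested), and 3 had a log2 difference above 0. The spinous list summed to 9074 to 19095 FPKM in WT dpc16 and 5550 to 7335 in cKO, with 1 of 8 genes passing and 1 of 8 above 0. That gene, Krt1, a spinous keratin, fell by 2.51 on the log2 scale (limma adjusted p = 0.00943), from 1401 ± 543 to 258 ± 147 FPKM (SD, n = 3). The part of these layers in the 8 rises was not tested.

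In the single-cell libraries 36927 barcodes passed the filters on genes detected (200 or more) and mitochondrial share (10% or less). They were clustered on variable genes that left out the 8 genes. With 1 library per state there is no test between states, and the exact 95% intervals given here cover counting error only. Levels are in CPM, the UMIs of a gene scaled to a common total of UMIs, and are not compared between genes. The 26 clusters were given "-like" names from marker lists, by a scoring rule set after the data had been seen, so a class here may differ from the study's own. The basal class was not compared between states, because its clusters 0 and 2 had Tgm3, a granular marker, among their leading genes, and cluster 2 came from dpc16 for 2542 of its 2851 cells. Its clusters are compared by number instead.

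All genes but Gypc were read in many molecules: 1573 UMIs of Fam180a, 773 of Slc43a1, 1611 of Zfp949, 282 of Mcam, 850 of Gpnmb, 566 of Spock2 and 2381 of Angptl7. Gypc gave 9 UMIs in all, in 9 cells (0.0244% of cells, exact binomial 95% interval 0.0111% to 0.0463%). Of these, 1 came from NP, 1 from dpc16, 4 from dpp6 and 3 from dpp40. By class, 3 lay in the unnamed cluster 14, 2 in T cell-like, 2 in cycling, 1 in sebaceous gland-like cells and 1 in the unnamed cluster 16, and none in basal keratinocyte-like cells. A cluster of 16 erythroid-like cells, with 39443 UMIs of Hbb-bs, held 0 Gypc UMIs, which allows a share of cells with a UMI of up to 18.8%. Gypc was thus close to the floor both in the bulk WT libraries and in these 4 states.

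Over all kept cells, 6 of the other 7 genes had their lowest level at dpc16. The share of all genes lowest at dpc16 was not computed, so nothing is read from this count. Fam180a was at 8.57 CPM (95% Poisson interval 7.69 to 9.53) in NP, 1.52 (1.25 to 1.83) at dpc16, 7.23 (6.54 to 7.98) at dpp6 and 11.5 (10.6 to 12.3) at dpp40. The dpc16 interval lies below all others. Zfp949 went from 9.20 (8.28 to 10.2) in NP to 4.43 (3.96 to 4.93) at dpc16, 7.97 (7.25 to 8.75) at dpp6 and 7.57 (6.91 to 8.29) at dpp40. Slc43a1 was at 3.97 in NP, 2.15 at dpc16, 3.66 at dpp6 and 4.03 CPM at dpp40, again with a dpc16 interval (1.83 to 2.51) below the rest. For these 3 genes dpc16 therefore stood apart beyond counting error.

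Mcam was at 1.61, 0.687, 0.938 and 1.84 CPM in the same order, and its dpc16 and dpp6 intervals overlapped. Gpnmb was at 5.05, 3.00, 3.28 and 3.90 CPM, with overlapping intervals at dpc16 and dpp6. Angptl7 was at 11.4, 7.90, 14.3 and 8.74 CPM, and its dpc16 (7.28 to 8.57) and dpp40 (8.02 to 9.50) intervals overlapped. Spock2 was the exception, at 3.37 and 3.26 CPM in NP and at dpc16 and lower at dpp6 (1.88) and dpp40 (1.37). Tbx3 ran the other way, at 4.35, 12.6, 3.86 and 2.59 CPM. The make-up of the libraries moved with these values: bulge and outer root sheath-like cells were 725 of 6491 kept cells in NP, 794 of 12853 at dpc16, 1775 of 9031 at dpp6 and 864 of 8552 at dpp40. The unnamed cluster 16, where Slc43a1 was highest, had 149, 15, 396 and 367 cells in the same order. The part of make-up in the whole-library levels, those of Slc43a1 at dpc16 included, was not tested.

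**Figure D2:**
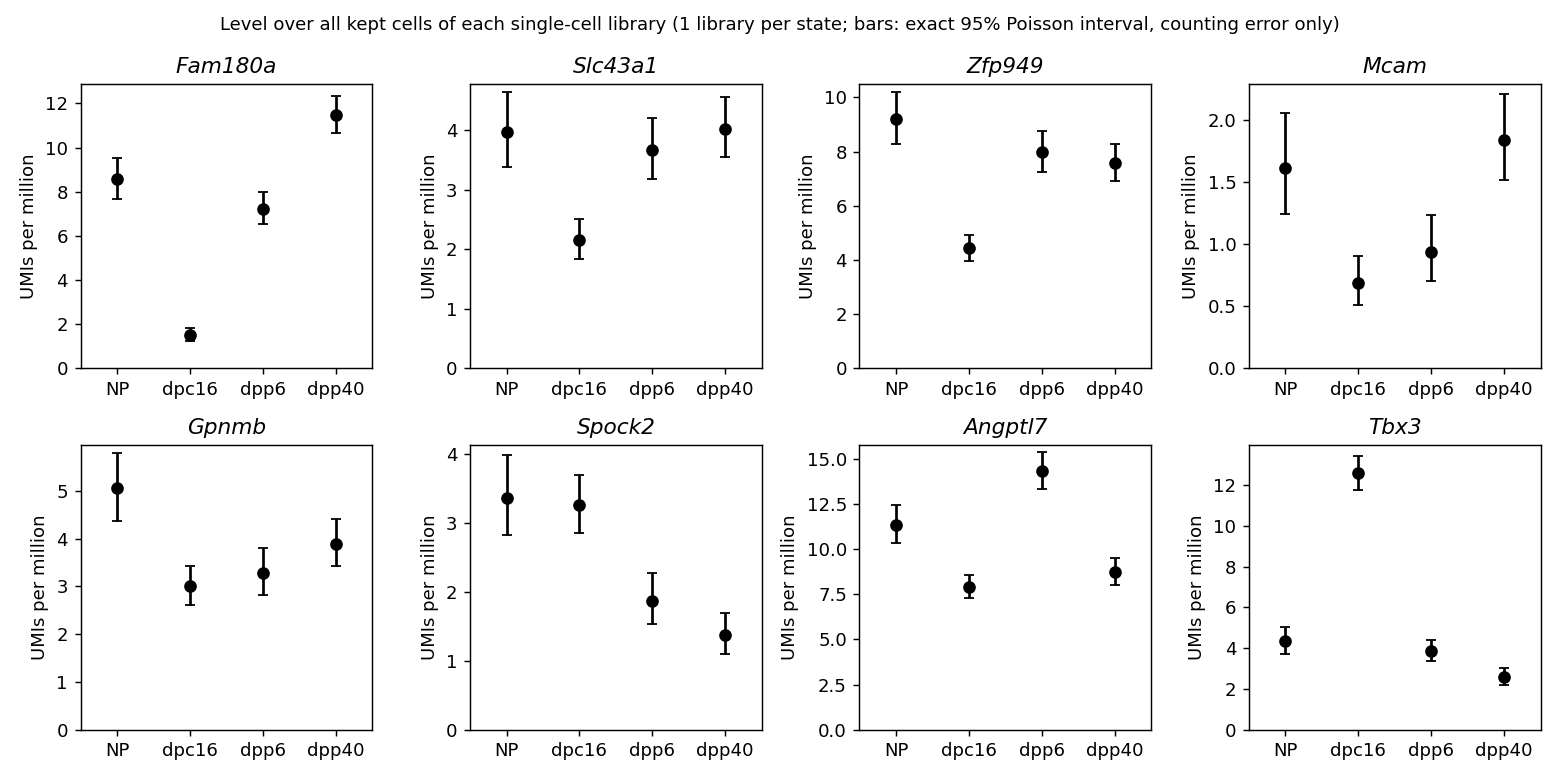
Level of 7 of the genes and of Tbx3 over all kept cells of each single-cell library, in CPM, with exact 95% Poisson intervals that cover counting error only. Fam180a, Slc43a1 and Zfp949 sit lowest at dpc16 with intervals apart from the other states, and Tbx3 sits highest there.

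Angptl7 was the most restricted of the 7. Bulge and outer root sheath-like cells, the stem cell region of the hair follicle and its lining, held 60.8% of its UMIs and had its highest level in all 4 libraries. The mean level there was 74.6 CPM (66.7 to 81.3 over the 4 libraries), against 1.66 in basal keratinocyte-like cells. With each cell thinned to 2000 UMIs, 12.3% of these cells held a UMI of Angptl7, against 2.40% of Langerhans-like cells and 0.359% of basal keratinocyte-like cells. Unthinned, the shares were 20.01%, 4.97% and 0.808%. Langerhans cells are not known for this gene, so their share may hold free RNA. The basal share lies below the Langerhans share, which therefore gives no floor for other classes. Free RNA was not measured.

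Within that class, cluster 3, with Cd34 and Postn among its leading genes, held Angptl7 at 121 CPM in NP, 178 (149 to 210) at dpc16, 95.9 at dpp6 and 92.5 at dpp40. Cluster 12 held 40.2, 61.2 (53.2 to 70.1), 50.9 (41.3 to 62.1) and 43.4 CPM. The whole-library level was lowest at dpc16 while the level within both clusters was highest there, in cluster 12 with an interval that overlapped that of dpp6. Outside the bulge, cluster 8, led by Aspn and Pthlh within the Sostdc1-high upper follicle-like class, held 60.8, 59.9, 43.9 and 25.6 CPM. Clusters 3, 12 and 23 of the bulge class all had Cd34 among their leading genes, and the sort behind the bulk libraries excluded CD34 positive cells. Cluster 23, with 313 cells, held only 4 UMIs each of Angptl7 and Fam180a, both at 3.75 CPM.

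Fam180a followed a wider pattern. Its mean level was 20.1 CPM in bulge and outer root sheath-like cells, highest there in all 4 libraries, 13.5 in Sostdc1-high upper follicle-like cells and 8.05 in basal keratinocyte-like cells. It was 3.36 CPM in Langerhans-like cells and 2.79 in spinous keratinocyte-like cells. Its low value at dpc16 was seen cluster by cluster. In basal cluster 0 the level was 16.4 CPM (11.8 to 22.2) in NP, 0.946 (0.380 to 1.95) at dpc16, 4.0 (2.13 to 6.84) at dpp6 and 13.0 (9.70 to 17.1) at dpp40. In basal cluster 4 it was 12.5 CPM in NP and 13.3 at dpp40, against 1.28 at dpc16 and 1.16 at dpp6. Cluster 1 of the Sostdc1-high class held 14.9, 3.23, 5.46 and 17.9 CPM, and bulge cluster 3 held 22.7, 10.6, 37.1 and 42.3. The bulk libraries of sorted basal cells had the same order for NP and WT dpc16, with 4.67 ± 2.25 and 1.40 ± 0.340 FPKM (SD, n = 3). The choice of the genes used these WT dpc16 values, so nothing is read from the bulk order.

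Among named classes Gpnmb had its highest mean in basal keratinocyte-like cells, 9.36 CPM with 45.1% of its UMIs, and they were the highest of all classes in 2 of 4 libraries. The unnamed cluster 16 was higher, at 16.0 CPM over all libraries, and most of its Gpnmb UMIs lay in pigment cells. The next were bulge and outer root sheath-like cells at 3.42 and spinous keratinocyte-like cells at 2.82 CPM. Langerhans-like cells were near these at 2.69 CPM, on 11 UMIs. Cluster 0 held 14.8 CPM (10.5 to 20.4) in NP, 5.68 (4.09 to 7.67) at dpc16, 4.0 (2.13 to 6.84) at dpp6 and 12.3 (9.04 to 16.3) at dpp40. Cluster 4 held 22.4, 4.26, 5.53 and 9.72 CPM. These values are lower at dpc16 than in NP, whereas the bulk FPKM of Gpnmb was higher in WT dpc16 than in NP. The 2 data sets differ in mice, in sorting and in assay, and that difference was not tested.

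A few pigment cells carried Gpnmb far above any cluster. By a definition set after the data had been seen, 29 cells held 3 or more UMIs of Pmel, Mlana, Tyrp1 and Tyr together, and they held 101 of the 850 Gpnmb UMIs (11.9%) at 631 CPM. Of these cells, 18 came from dpp6. The unnamed cluster 16, led by Fam13a, Cldn10 and Mfap2, scored highest for the melanocyte list (1.94) and nearly as high for the inner root sheath and matrix list (1.62), and held 90 Gpnmb UMIs in its 16 pigment cells and 5 in its other 911 cells. Basal keratinocyte-like cells without pigment UMIs still held 381 UMIs at 7.90 CPM, so the basal reading did not rest on such cells.

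Spock2 was read mostly in follicle classes and was low in basal cells. Its mean level was 7.64 CPM in Sostdc1-high upper follicle-like cells, which held 36.2% of its UMIs, and 8.28 in the unnamed cluster 14, led by Akr1c18 and Akr1c19. It was 4.12 in bulge and outer root sheath-like cells. Basal keratinocyte-like cells held 0.706 CPM and spinous ones 0.646, below the 1.83 of Langerhans-like cells, which rests on 6 UMIs. In cluster 1 the level was 8.43 CPM (5.96 to 11.6) in NP, 13.1 (10.0 to 16.9) at dpc16, 6.60 (4.42 to 9.47) at dpp6 and 3.15 (1.68 to 5.38) at dpp40. The dpc16 interval overlaps that of NP and lies above the 2 later ones.

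Slc43a1 was read at low levels in most classes, with a mean of 6.02 CPM in bulge and outer root sheath-like cells, 4.16 in basal keratinocyte-like cells and 2.79 in Langerhans-like cells. Its highest level was in the unnamed cluster 16, at 26.7 CPM (15.8 to 42.2) in NP, 18.0 (13.3 to 23.8) at dpp6 and 25.1 (19.2 to 32.1) at dpp40. At dpc16 this cluster had 15 cells of its 927 and held no UMI of Slc43a1. In cluster 3 of the bulge class the level was 8.66, 6.63, 11.1 and 4.75 CPM. Basal cluster 0 held 3.52, 2.97, 3.08 and 2.30 CPM over the 4 states, with overlapping intervals.

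Among named classes Mcam had its highest mean in cycling cells, 5.11 CPM with 30.1% of its UMIs, although these cells were 6.39% of all cells. They were the highest of all classes in 2 of 4 libraries. The unnamed cluster 16 was as high, at 5.90 CPM (4.11 to 8.20) over all libraries, against 5.02 in all cycling cells, and thinned to 2000 UMIs the levels were 4.85 and 4.03. Bulge and outer root sheath-like cells were at a mean of 1.54 CPM and basal keratinocyte-like cells at 1.06. Cluster 11, led by Ube2c and Top2a, held 9.99 CPM (6.64 to 14.4) in NP, 3.15 (1.51 to 5.79) at dpc16, 3.01 (1.38 to 5.71) at dpp6 and 6.59 (4.31 to 9.66) at dpp40. The NP interval lies above those of dpc16 and dpp6. In basal cluster 0 the levels were 3.13 (1.35 to 6.16), 0.270 (0.0327 to 0.976), 0.308 and 1.79 CPM, with NP highest there too. In the bulk libraries none of the 8 cycling markers passed between cKO and WT by limma (0 with an unadjusted p under 0.05), and their list summed to 68.3 to 296 FPKM in WT dpc16 and 108 to 277 in cKO, so the groups overlapped.

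Zfp949 was spread over all classes. Mean levels ran from 5.24 CPM in cluster 14 to 11.2 in granular keratinocyte-like cells, and basal keratinocyte-like cells were at 6.40. Over the 4 libraries the granular level was 10.7 CPM on 120 UMIs. With each cell thinned to 2000 UMIs it was 6.78 CPM, on only 10 UMIs. Granular cells are deeply read and lose most of their UMIs to thinning. On so few UMIs these levels cannot be told apart. Its value in cluster 0 was 8.99 CPM (5.70 to 13.5) in NP, 4.19 (2.85 to 5.95) at dpc16, 8.31 (5.47 to 12.1) at dpp6 and 7.92 (5.38 to 11.2) at dpp40. The upper end of the dpc16 interval overlapped the lower ends of the other 3.

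**Figure D3:**
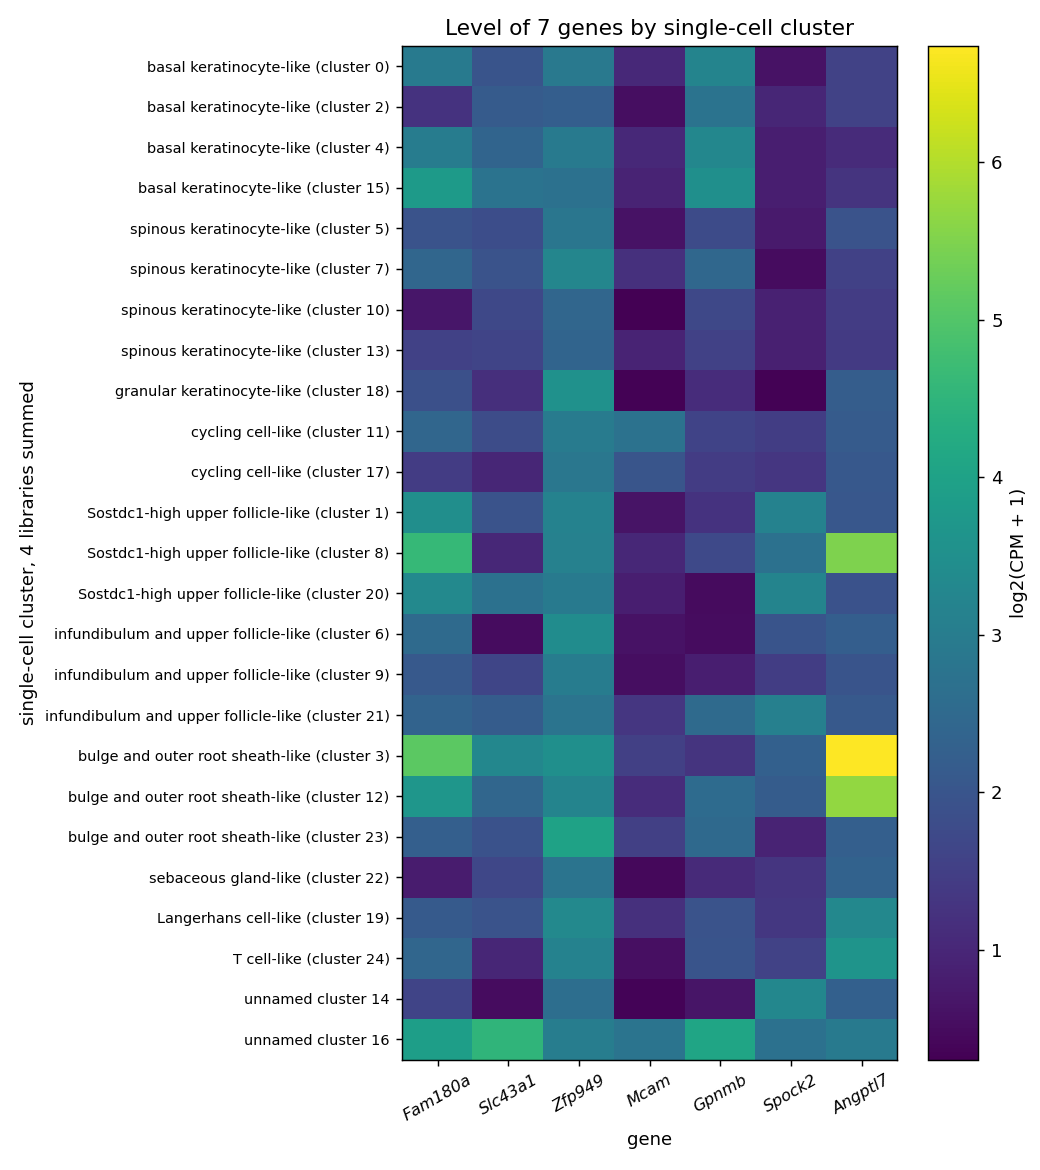
Level of 7 of the genes in 25 single-cell clusters, with the 4 libraries summed, as log2(CPM + 1); rows are clusters with their class, columns are genes. Angptl7 is brightest in clusters 3, 12 and 8, Fam180a in clusters 3 and 8, Spock2 in the unnamed cluster 14 and follicle clusters 20 and 1, and Slc43a1 and Gpnmb in cluster 16, where Gpnmb rests on 16 pigment cells.

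**Figure D4:**
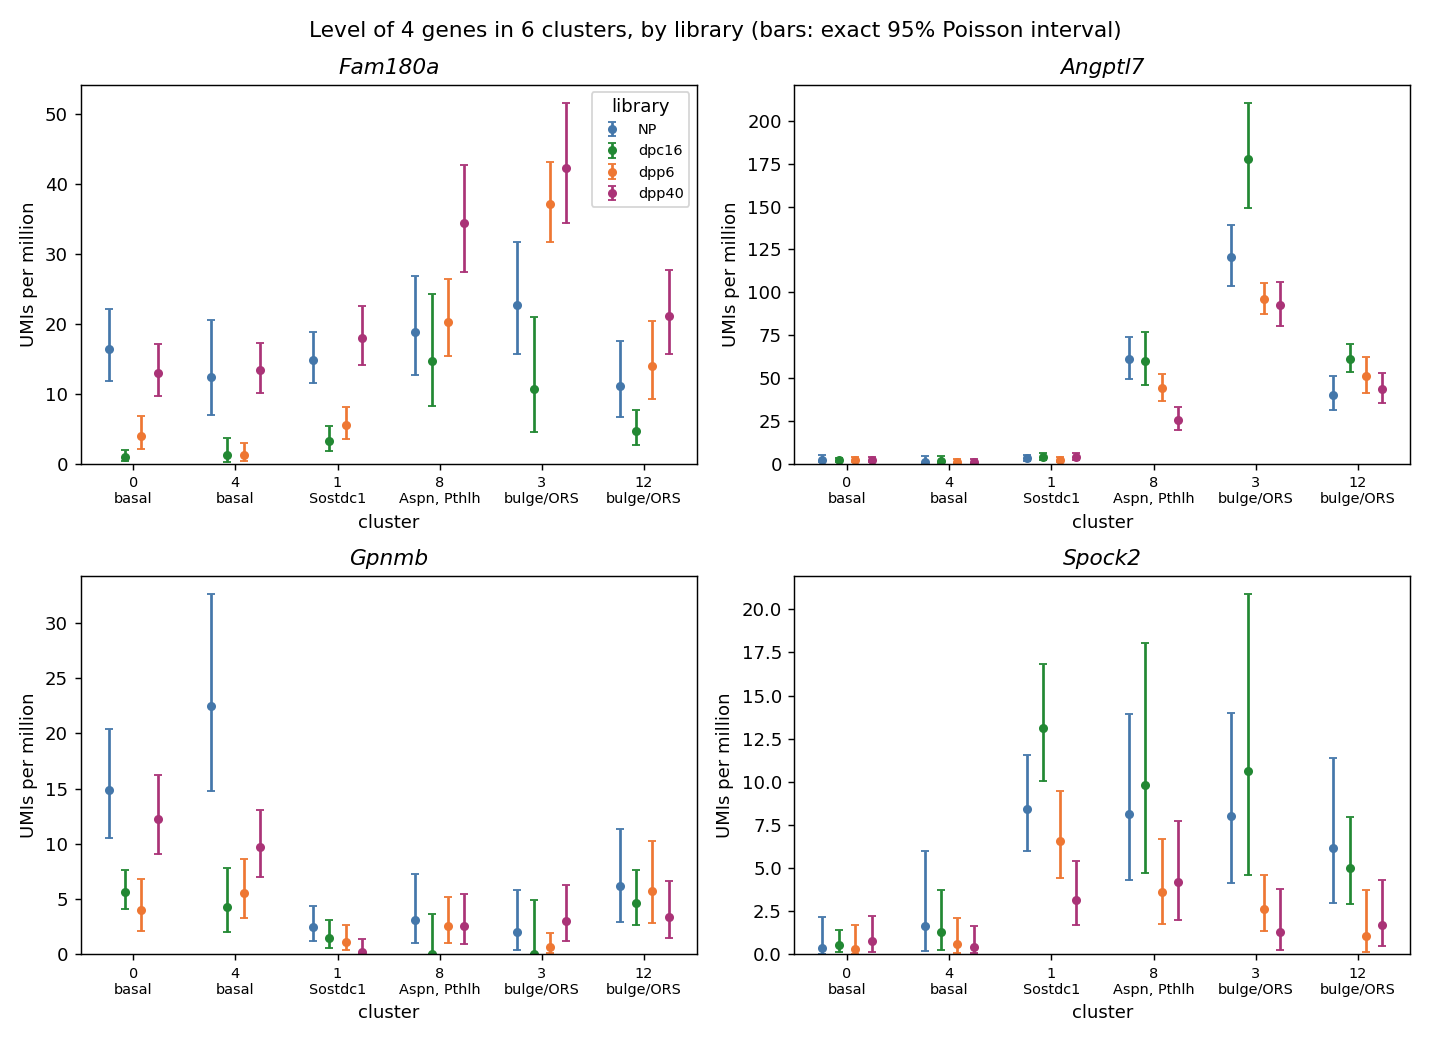
Level of Fam180a, Angptl7, Gpnmb and Spock2 in 6 clusters by library, in CPM, with exact 95% Poisson intervals that cover counting error only. Fam180a is near 1 CPM in basal clusters 0 and 4 at dpc16 against 12.5 or more in NP, while Angptl7 in cluster 3 is highest at dpc16.

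For each gene with at least 200 UMIs, the 3 genes most alike over 46 profiles (a class in a library) were found by Pearson correlation of log2(CPM + 10). The profiles share libraries and classes, so the values are descriptions. Angptl7 was most like Chat (r = 0.93), Nog (0.91) and Cd34 (0.91). Fam180a was most like Guca1a (0.83), Gm973 (0.82) and Hopxos (0.81). Spock2 was most like Mgp (0.83), Rbms3 (0.78) and Apbb2 (0.76). Gpnmb was most like Anxa3 (0.77), Trpm1 (0.71) and Tyrp1 (0.68), Trpm1 and Tyrp1 being genes of pigment cells. Slc43a1 was most like Odf3b (0.92), Gm11627 (0.91) and Nkd1 (0.91), and Mcam was most like Tube1 (0.81), Myef2 (0.77) and Aaas (0.76). Zfp949 had the weakest likeness, with Fibp at 0.64, Med25 at 0.62 and Alkbh6 at 0.62. None of those with a bulk test passed in cKO against WT, with limma adjusted p from 0.0790 (Gm973) to 0.960 (Tube1). Among the 8 genes themselves the closest pairs were Fam180a with Slc43a1 and Fam180a with Angptl7, both at 0.55.

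Relatives and partners of the 8 genes were read in the bulk libraries by limma, where 1.23% of the genes tested passed upwards and 0.922% downwards in cKO against WT at dpc16. Of the large neutral amino acid transporters, relatives of Slc43a1, 2 of the 7 tested rose and none fell. Slc43a2, a transporter of the same family as Slc43a1, was at 2.91, 2.69 and 2.11 FPKM in WT dpc16, at 8.38, 3.01 and 6.43 in NP and at 38.3, 15.8 and 8.95 in cKO. Its groups at dpc16 did not overlap, and it rose by 2.40 (SE 0.46) on the log2 scale (limma adjusted p = 0.0328). Slc3a2, the shared heavy chain of the Slc7 transporters, rose from 295 ± 22.0 to 471 ± 38.5 FPKM (SD, n = 3; limma adjusted p = 0.0447). All 7 had a log2 difference above 0, with a median of 0.54, against 5841 of 11497 genes and a median of 0.01 over all genes. These calls were not stable: Slc43a2 passed in 8 of 15 other settings (adjusted p from 0.0135 to 0.173) and Slc3a2 in 4 (0.0292 to 0.157).

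Of 21 lysosome genes and regulators tested, the setting in which Gpnmb is known, Flcn alone passed. Flcn, a regulator of amino acid signalling at the lysosome, rose from 16.8 ± 0.742 to 33.0 ± 8.61 FPKM (SD, n = 3; limma adjusted p = 0.0425), and it passed in 5 of 15 other settings (0.0238 to 0.148). The log2 difference was above 0 for 16 of the 21, with a median of 0.23. Ctsl, a lysosomal protease, was at 142, 99.9 and 105 FPKM in WT dpc16 and at 780, 171 and 347 in cKO. It did not pass (log2 difference 1.64, limma adjusted p = 0.0771), and is named after its value was seen. In this list too cKO library 1 had the highest sum, 2279 FPKM against 1488 and 1634.

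Among relatives of Spock2 and Angptl7, those that passed fell. Of 3 tested members of the testican and SPARC family, Sparc, a collagen-binding matrix protein, fell from 89.5 ± 5.98 to 28.5 ± 9.91 FPKM (SD, n = 3; limma adjusted p = 0.0106). Smoc2, a calcium-binding matrix protein, fell from 323 ± 19.3 to 140 ± 7.40 FPKM (limma adjusted p = 0.00253). Smoc2 passed in all 15 other settings (adjusted p from 0.00252 to 0.0190) and Sparc in 13 (0.00874 to 0.0916). Sparc is also on the list of fibroblast markers, whose sum of 17.8 to 36.4 FPKM in cKO was nearly all Sparc. Of 3 tested angiopoietin-like genes, Angptl4, a secreted inhibitor of lipoprotein lipase, fell from 35.1 ± 8.53 to 4.92 ± 0.763 FPKM (limma adjusted p = 0.00165), in all 15 other settings as well (0.00164 to 0.0255). Angptl4 was at 5.33 ± 1.31 FPKM in NP, and it rose between NP and WT dpc16 (log2 difference 2.51, limma adjusted p = 0.00242), where 0.104% of genes tested passed upwards. Angptl4 and Angptl7 had opposite differences in cKO against WT, but Angptl7 was picked as a rise in this contrast, so nothing is read from that.

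Lists of partners held no call by limma. None of the 9 tested erythrocyte membrane skeleton partners of glycophorins passed, while 3 had an unadjusted p under 0.05, against 17.4% of all genes tested. Among them were Mpp1 (39.6 ± 11.4 in WT, 33.2 ± 5.00 FPKM in cKO) and Epb41 (29.4 ± 9.08 and 20.02 ± 3.92). These 2 had lower means in cKO, but 6 of the 9 had a log2 difference above 0, with a median of 0.16. They are a small part of the list, which summed to 409 to 468 FPKM in WT dpc16. None of the 10 tested adhesion molecules and laminin partners of Mcam passed, among them Bcam (489 ± 136 and 573 ± 38.2 FPKM) and Lama5 (158 ± 25.6 and 231 ± 44.2), with 3 at an unadjusted p under 0.05. None of the 6 tested genes of the corepressor machinery of zinc finger proteins passed, among them Trim28 (231 ± 15.4 and 186 ± 6.90 FPKM), with 1 at an unadjusted p under 0.05. Of 271 tested genes with a Zfp symbol, Zfp949 left out, 2 passed upwards and none downwards, and 167 had a log2 difference above 0. Zfp868 rose from 8.17 ± 0.791 to 20.9 ± 3.5 FPKM (SD, n = 3; limma adjusted p = 0.0124; in 10 of 15 other settings). Zfp26 rose from 7.60 ± 1.06 to 17.9 ± 1.40 FPKM (limma adjusted p = 0.0332; in 8 of 15 other settings).

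**Figure D5:**
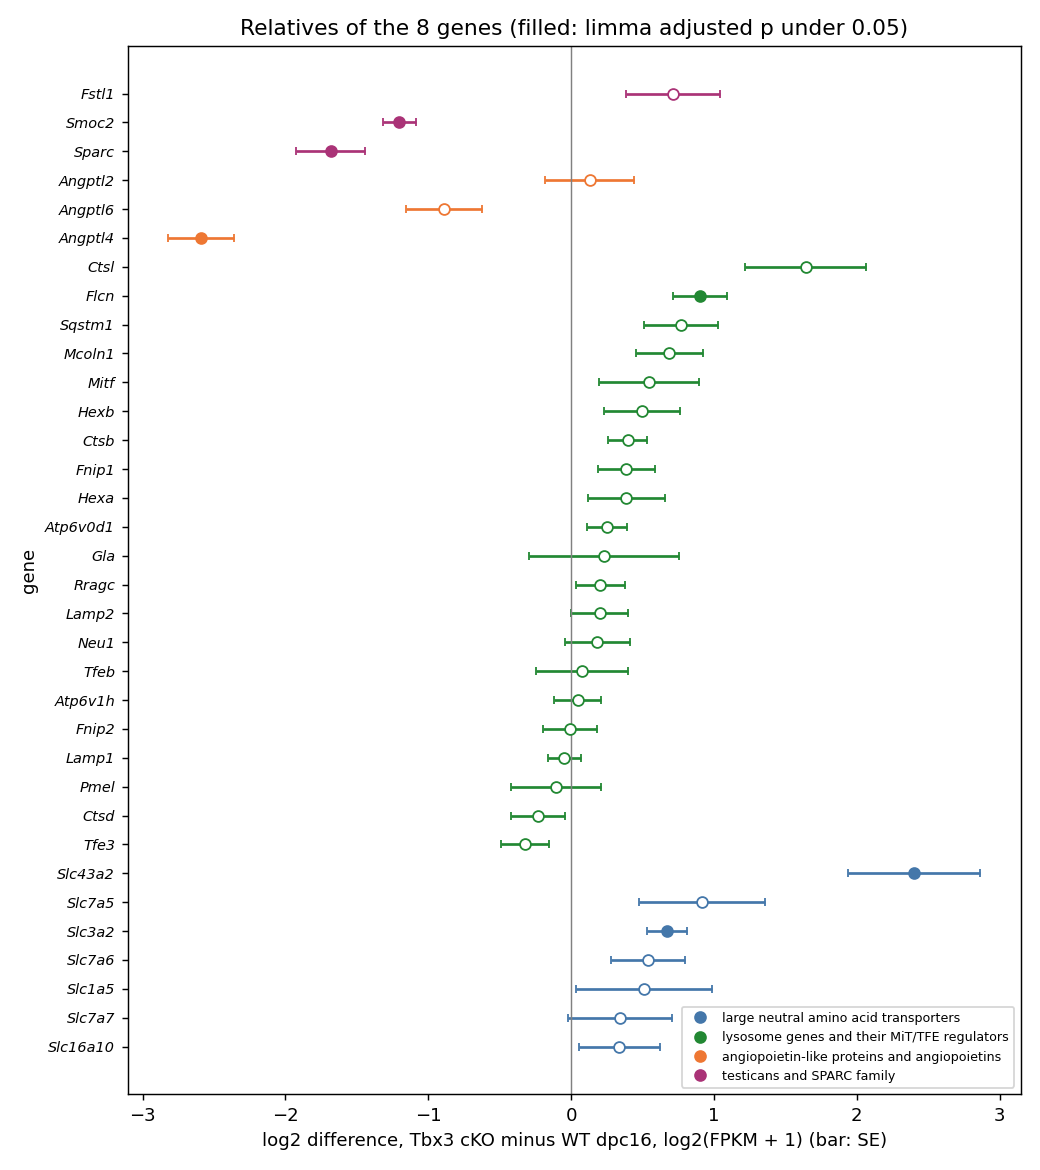
Log2 difference (cKO minus WT at dpc16, on the log2(FPKM + 1) scale) of the tested members of 4 lists of relatives, with bars of 1 SE; filled points passed at a limma adjusted p under 0.05. Slc43a2 rises most, and Angptl4, Sparc and Smoc2 fall.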

How the data were processed

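The authors deposited bulk values as FPKM in 1 table for 9 libraries, and single-cell values as raw UMI counts per gene and barcode for 4 libraries. Tools listed in the submitters' processing notes, without roles or order, are Cell Ranger 2.2.0, Cufflinks 2.2.1, Cuffdiff, TopHat2 and cutadapt 1.14, with the build mm10. The sources used here do not give the annotation, the strand setting or the cell filter. Columns headed WT were taken as dpc16 because the other headings name NP and cKO. Libraries are numbered by column order. No label ties libraries to separate animals. The p-values therefore rest on the library-to-library spread alone, and that spread may be technical.

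Values were taken as log2(FPKM + 1), which understates changes of low genes. The 11497 genes averaging 1 FPKM or more over 9 libraries entered limma (version 3.58.1, R 4.3.3), with 3 group means, a trend, two-sided p-values and Benjamini-Hochberg adjustment (threshold 0.05), after a check on simulated data. Positions came from GENCODE M21, which matched 21886 of 21950 IDs.

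Barcodes in the files numbered 6635 (NP), 12984 (dpc16), 9351 (dpp6) and 8716 (dpp40). Requiring 200 or more genes and a mitochondrial share of 10% or less left 6491, 12853, 9031 and 8552, against 6485, 12846, 9029 and 8552 cells stated by the study. No doublet caller was run and no doublets were removed. Cells were clustered in scanpy 1.11.5 (2000 variable genes without the 8 genes, 30 components, 15 neighbours, Leiden resolution 1, leidenalg 0.10.2, seed 1), without integration. A cluster took the name of the marker list with the highest mean marker score where that score was at least 0.6 and at least 0.35 above the second list, at least 3 markers were high, and markers of other lists did not outnumber its own among the top genes by more than 1. Clusters 14 and 16 failed on the gap to the second list. Classes were ranked within a library only where they held at least 50 cells there. Mean levels over the 4 libraries are given for classes that met this in each.

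The 8 genes and the lists were chosen with earlier results of these data known. From each list the text names the genes that passed in cKO against WT (at most 4), or at most 2 with the highest FPKM where none did, besides defining markers of other cell types. Mpp1 and Epb41 are an exception, since they are not the 2 genes of their list with the highest FPKM. Alternatives were other pseudocounts, filters, normalization, cluster resolutions, cell filters, thinning to 2000 UMIs, and leaving out each library.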

Additional observations from a re-analysis of the deposited data

How the results depend on the processing

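The 247 genes that passed between cKO and WT dpc16 became 27 with no filter on low FPKM and 118 with only the 6 libraries compared, and 41 (without WT dpc16 library 2) to 390 (without cKO library 3) with 1 library left out. The count was also 65 and 57 without WT dpc16 libraries 1 and 3, 56 and 80 without cKO libraries 1 and 2, and 157 and 155 without NP libraries 1 and 2. The 15 genes of WT dpc16 against NP became 2 with no filter, and 5 to 15 with 1 library left out. The 651 genes of cKO against NP became 74 with no filter and 167 with 6 libraries, and 123 to 721 with 1 library left out. With the column number as a replicate block the counts were 202, 10 and 553. Libraries of the same column number had correlated deviations between WT and cKO of r = 0.31, 0.069 and 0.36. Between the other groups r ran from -0.21 to 0.039. Libraries of unlike numbers were not compared, so whether the number pairs libraries was not tested. The cause of the moves in the counts was not tested either.

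The log2 difference of each of the 8 genes in cKO against WT stayed above 0 in all settings run. This contrast chose the genes, so nothing is read from that. Between WT dpc16 and NP, leaving out 1 library gave -0.015 (without WT dpc16 library 2) to 0.071 for Gypc and -0.62 to 0.44 (without NP library 3) for Angptl7. With a pseudocount of 0.1 the cKO differences were 3.60 for Fam180a and 4.01 for Angptl7. The 10 relatives and markers that passed, and Tbx3, kept their direction in all 15 other settings, and lost the call in 51 of the combinations run.

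In single cells, the share of UMIs in the leading class moved as follows, judged only against the counting error of the main setting. Thinning left few UMIs, such as 51 of Slc43a1 in bulge and outer root sheath-like cells and 19 of Mcam in cycling cells. The counting error of the thinned values was left out, so whether they moved beyond it was not tested. Thinning to 2000 UMIs gave 30.7% for Fam180a, 19.2% for Slc43a1 (16.0% unthinned), 2.05% for Zfp949 in granular cells (7.45% unthinned), 22.4% for Mcam, 51.6% for Gpnmb, 40.5% for Spock2 and 66.3% for Angptl7. The levels under thinning were 6.78 CPM for Zfp949 and 85.7 for Angptl7. At Leiden resolution 2 the shares were 23.8% for Fam180a, 42.9% for Spock2 and 52.4% for Angptl7, whose level was 68.4 CPM. Resolution 0.5 gave 44.5% for Spock2. At most 5% mitochondrial UMIs gave 49.6% for Gpnmb and 30.4% for Spock2, and at least 500 genes gave 47.5% for Spock2 and 63.5% for Angptl7. Without cells holding 3 or more pigment UMIs, a setting chosen after seeing the data, the Gpnmb share was 50.9%. At these depths differences of Gypc between states, and of Slc43a1 within cluster 0, were not detectable.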
